A study of Mus musculus with 4 samples.

Results

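The sestrins and the core regulators of mTORC1 were followed by RNA-seq in *Bptf*-deficient hematopoietic stem and progenitor cells. The group consisted of 10 genes, *Sesn1*, *Sesn2*, *Sesn3*, *Ddit4*, *Deptor*, *Mtor*, *Rptor*, *Tsc1*, *Tsc2* and *Rheb*. They were picked by symbol for their place in the pathway, with earlier results of these data known. All 10 were found among the 18598 genes of the deposited table. RNA came from LSK cells, the lineage-negative bone marrow cells that carry SCA-1 and c-KIT, of C57BL/6 mice about 3 months old. There were 2 libraries of control *Bptf* f/f mice and 2 libraries of *Bptf* cKO mice (labelled *Bptf* -/-), each from the pooled cells of 5 mice, sorted 10 days after cre induction. Both groups carried the floxed *Bptf* allele and received pIpC, and *Bptf* cKO mice also carried cre under the interferon-responsive *Mx1* promoter, which is not limited to blood cells. Loss of *Bptf* and the presence of cre therefore cannot be told apart in this comparison.

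mTORC1 is the kinase complex that promotes protein synthesis and restrains autophagy when amino acids, energy and growth signals are at hand. The GTPase RHEB switches the kinase on, the TSC1-TSC2 complex switches RHEB off, and the Rag GTPases bring the complex to the lysosome when amino acids are present. Sestrins hold back the amino acid branch by binding GATOR2, and DDIT4 (also called REDD1) acts through TSC2. In blood stem cells, unchecked mTORC1 activity after loss of TSC1 is known to end quiescence and impair self-renewal. RNA levels do not measure the activity of the kinase, which is set by phosphorylation and binding.

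*Sesn2* was the gene of the group called by limma on genotype alone, and the sequence just before its start is shown beside that of *Sesn3*. Both *Sesn1* and *Sesn3* were lower in *Bptf* cKO cells without passing the limma test of genotype alone, *Sesn3* by more. The stretches come from RefSeq promoter windows of GRCm38.p6, written 5′ to 3′ on the strand of the gene, and end where the exon at that start begins. Capitals mark the CCAAT box (letters CCAAT or, on the other strand, ATTGG), the site to which NF-Y binds. *Sesn2* is shown for chr4:132510502-132510706 on the minus strand and *Sesn3* for chr9:14276051-14276300 on the plus strand. The *Sesn3* stretch precedes the start of its longest coding transcript, and lies in the first intron of other *Sesn3* transcripts, whose first exon begins farther upstream at 14275067.
Sesn2: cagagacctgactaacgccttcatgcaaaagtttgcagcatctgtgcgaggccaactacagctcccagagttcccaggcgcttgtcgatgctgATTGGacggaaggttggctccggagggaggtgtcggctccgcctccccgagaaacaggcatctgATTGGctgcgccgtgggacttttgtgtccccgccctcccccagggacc
Sesn3: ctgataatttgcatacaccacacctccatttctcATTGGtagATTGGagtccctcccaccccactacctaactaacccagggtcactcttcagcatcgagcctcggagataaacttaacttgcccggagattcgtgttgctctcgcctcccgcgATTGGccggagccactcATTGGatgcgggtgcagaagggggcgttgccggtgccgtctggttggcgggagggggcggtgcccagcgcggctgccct

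The *Sesn2* stretch of 205 bases held 2 CCAAT boxes and the *Sesn3* stretch of 250 bases held 4. Each also held 1 GC box (GGGCGG on either strand), and the stretches were alike in GC content, at 61.0% and 59.6%. Over windows of 300 bases, from 250 before to 50 after the start, 37.4% of all 32851 RefSeq promoters held a CCAAT box and 35.7% a GC box. Windows were found for 9 of the 10 genes, with 2 for *Sesn1*, and *Deptor* had none. Of these 10 windows 6 held a CCAAT box and 7 a GC box. None of them held TGATGNAA, the element read by ATF4 with C/EBP proteins, which 3.97% of all promoters hold, or the cyclic AMP element TGACGTCA, which 1.79% hold. The E-box CACGTG was found in the window of *Rheb* alone (7.15% of all promoters), and the forkhead motif GTAAACA in 1 window of *Sesn1* alone (3.65%). These are matches of letters on either strand within a short window and say nothing of binding there or farther away.

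The libraries held from 14091054 to 30134742 reads on the genes of the table, and every gene of the group had at least 261 reads in every library. Replicate 1 was the deeper library of both genotypes and replicate 2 carried the *Xist* reads, at 15675 and 11843 normalized counts against 0.775 and 3.25. The Y-linked *Ddx3y* was present in all libraries, at 1837 and 1835 normalized counts in replicate 1 and 456 and 769 in replicate 2 of *Bptf* f/f and *Bptf* cKO, so that only the replicate 2 pools held reads of both genes at such levels. Differences are therefore also given within each replicate number. *Bptf*, the targeted gene, had 5520 and 5850 normalized counts in *Bptf* f/f and 3398 and 3320 in *Bptf* cKO libraries (limma adjusted p = 0.0439, and 0.0531 with edgeR), and its limma call was lost when any of the 4 libraries was left out, at adjusted p from 0.0647 to 0.316. The paper describes deletion of an exon of *Bptf*, which left unstable transcripts that were out of frame. The *Bptf* values here are sums over the whole gene, so their fall does not measure how complete the deletion was. All 6 LSK markers, *Kit*, *Ly6a*, *Cd34*, *Flt3*, *Slamf1* and *Cd48*, were present in every library. Their median log2 fold change was -0.45, from -0.80 for *Slamf1* to 0.091 for *Ly6a*, with 0 called in limma, edgeR and DESeq2 and 0 at an unadjusted p under 0.05, and 3 called lower with the replicate number as a block. Of marker lists for other cells, 5 of 6 erythroid markers were lower in both *Bptf* cKO libraries, against 23.8% of all tested genes. Summed erythroid levels were 1763 and 1476 normalized counts in *Bptf* f/f and 233 and 378 in *Bptf* cKO. In limma 1 of the 6 was called lower, against 0.37% of all tested genes. An unadjusted limma p under 0.05 was found for 5 of the 6, against 15.7%. Erythroid log2 fold changes ran from -3.62 to -1.02, with a median of -2.01. The limma fit with the replicate block called 5 of the 6 lower, against 8.36% of all tested genes. Summed granulocyte and monocyte markers ranged from 13323 to 81508 in *Bptf* f/f and from 40738 to 50442 in *Bptf* cKO, with all 10 genes overlapping between the groups. Of these 10, the block fit called 2 higher and 1 lower, against 6.03% and 8.36% of all tested genes. B cell, macrophage and megakaryocyte sums also overlapped, and 2 of 5 T cell markers were listed. In the block fit 1 B cell and 1 megakaryocyte marker were called lower, and 0 macrophage or T cell markers were called. The 10 immediate-early genes summed to 67440 in replicate 1 and 164876 in replicate 2 of *Bptf* f/f, and to 23512 and 28049 in *Bptf* cKO. Of these 10 genes, 7 lay below the lower control in each *Bptf* cKO library and 3 overlapped. Their median log2 fold change was -1.28, from -2.95 to 0.72. In limma 6 of the 10 had an unadjusted p under 0.05 and 0 were called. With the replicate number as a block, limma called 7 lower, against 8.36% of all tested genes. *Bptf* f/f replicate 2 also stood apart, with the lowest granulocyte and the highest immediate-early sum. The part of these lists in the results below was not tested.

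*Sesn2* encodes a leucine-sensing sestrin, a stress-induced inhibitor of mTORC1 that is known as a target of ATF4 and of p53. It had 364 and 362 normalized counts in the *Bptf* f/f libraries and 1406 and 1781 in the *Bptf* cKO libraries. The lower *Bptf* cKO library was thus far above both controls, which differed little from each other. The mean rose from 363 ± 1.27 to 1594 ± 265 (SD, n = 2 libraries each), 4.35-fold with a 95% interval of 3.33 to 5.70 (log2 fold change 2.12, standard error [SE] 0.15, limma adjusted p = 0.0204). Behind these values stood 469 and 261 reads in *Bptf* f/f and 2164 and 1262 reads in *Bptf* cKO. The controls thus lay closer together than counting of so few reads would usually give, and their SD understates the spread to be expected. The difference was 1.95 within replicate 1 and 2.30 within replicate 2 on the log2 scale. By size of rise *Sesn2* ranked 126 of the 14858 genes tested, of which 55 (0.37%) passed as higher and 55 (0.37%) as lower. Whether there was more RNA in each cell or more cells with the RNA cannot be told apart in such pooled samples. Its adjusted p was 0.0801 without *Bptf* cKO replicate 1 (log2 fold change 2.29), 0.145 without *Bptf* cKO replicate 2 (1.95) and 0.106 in limma without the mean-variance trend. With 2 libraries per genotype, an exact two-sided permutation test of 1 gene cannot give a p below 0.3333.

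**Figure D1:**
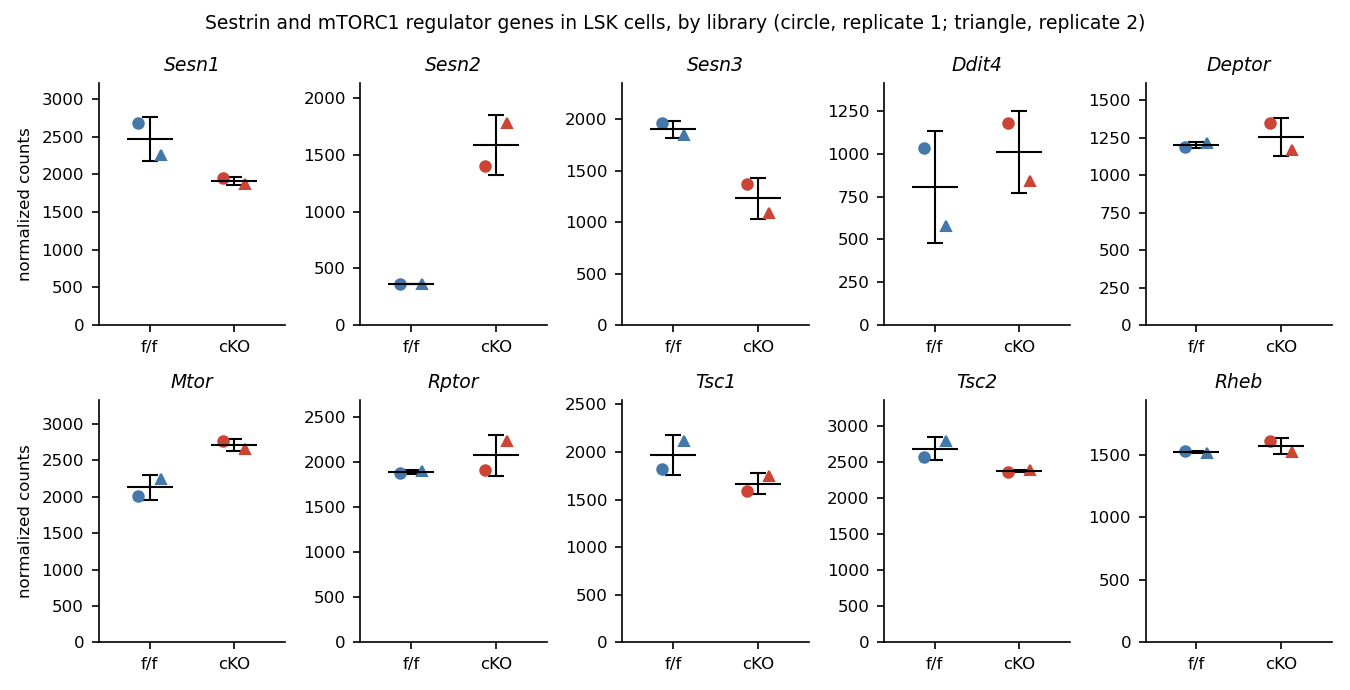
Normalized counts of each of the 10 genes in *Bptf* f/f (blue) and *Bptf* cKO (red) LSK cells, with 1 point per library, on axes from 0; bars are the mean and SD of 2 libraries. *Sesn2* stands at 364 and 362 against 1406 and 1781, while the *Ddit4* points of the genotypes overlap.

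The other sestrins were lower in *Bptf* cKO LSK cells, though neither passed the limma test of genotype alone. *Sesn1*, the sestrin first described as a p53 target, had 2676 and 2262 normalized counts in *Bptf* f/f and 1950.4 and 1878 in *Bptf* cKO libraries, without overlap. Its log2 fold change was -0.36 (SE 0.12, 95% interval -0.66 to -0.063, limma adjusted p = 0.252), with -0.46 within replicate 1 and -0.27 within replicate 2. *Sesn3*, a sestrin known to be induced by FOXO factors, had 1959.5 and 1842 normalized counts in *Bptf* f/f and 1374 and 1093 in *Bptf* cKO libraries. These groups did not overlap either, and the log2 fold change was -0.63 (SE 0.14, 95% interval -0.99 to -0.27, limma adjusted p = 0.135). The difference of *Sesn3* was -0.51 within replicate 1 and -0.75 within replicate 2. DESeq2 on the recovered reads, which called 500 genes lower (3.57% of those it tested), gave *Sesn3* an adjusted p of 0.0159 and *Sesn1* one of 0.197. With the replicate number as a block, limma called both lower, at adjusted p of 0.0232 for *Sesn1* and 0.00159 for *Sesn3*. That fit called 8.36% of all tested genes lower.

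Per kb of transcript the composition of sestrin RNA was accordingly different between the genotypes. *Sesn1* was the leading sestrin of *Bptf* f/f cells, with 703 and 594 normalized counts per kb, ahead of *Sesn3* with 215 and 202 and *Sesn2* with 105 and 104. In *Bptf* cKO cells *Sesn1* stood at 512 and 493 per kb, *Sesn2* at 405 and 512 and *Sesn3* at 151 and 120. *Sesn2* thus moved from the lowest of the sestrins to a level that overlapped that of *Sesn1*. Its share of the summed sestrin RNA per kb was 10.2% and 11.6% in the *Bptf* f/f libraries and 37.9% and 45.5% in the *Bptf* cKO libraries. The share of *Sesn3* was 21.0% and 22.4% against 14.1% and 10.6%. The sum of the 3 sestrins changed less, from 961 ± 86.4 to 1096 ± 41.0 normalized counts per kb (SD, n = 2 each). A share within a library does not depend on how libraries were scaled to each other. For each *Sesn3* read there were 0.186 and 0.196 *Sesn2* reads in *Bptf* f/f and 1.02 and 1.63 in *Bptf* cKO libraries.

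**Figure D2:**
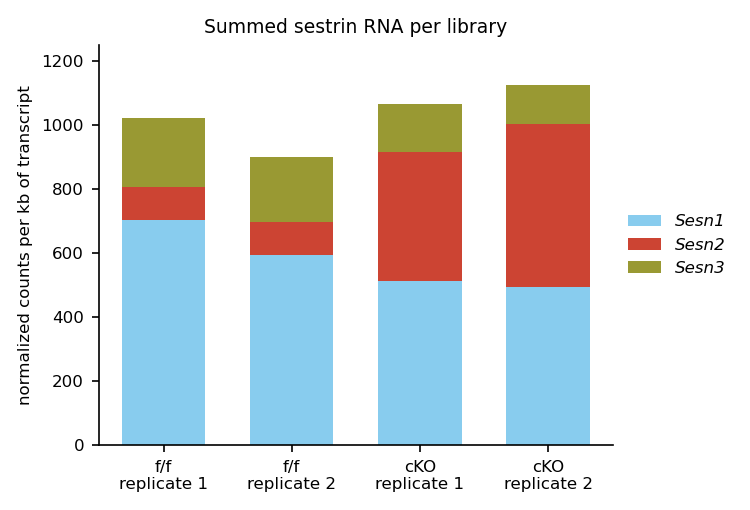
Normalized counts per kb of transcript of *Sesn1*, *Sesn2* and *Sesn3*, stacked for each of the 4 libraries. The *Sesn2* share grows from 10.2% and 11.6% in *Bptf* f/f to 37.9% and 45.5% in *Bptf* cKO, while the sum of all 3 goes from 961 to 1096.

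*Ddit4* encodes the stress-induced inhibitor that acts through TSC2, known to be induced by hypoxia, glucocorticoids and ATF4. It had 1035 and 577 normalized counts in *Bptf* f/f and 1176 and 842 in *Bptf* cKO libraries, so the genotypes overlapped. Its log2 fold change was 0.37 with a 95% interval of -0.44 to 1.17 (limma adjusted p = 0.650, SE 0.32), the widest interval of the 10 genes. Replicate 2 was lower than replicate 1 in both genotypes, by -0.84 on the log2 scale in *Bptf* f/f and by -0.48 in *Bptf* cKO. Within replicate 1 the difference between genotypes was 0.18, and within replicate 2 it was 0.55. The low library was *Bptf* f/f replicate 2, which also had the highest immediate-early sum, and without it the log2 fold change was -0.056 (limma adjusted p = 0.929). Without *Bptf* f/f replicate 1 it was 0.79 (limma adjusted p = 0.232).

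*Deptor*, whose product binds and inhibits mTOR, had 1189.8 and 1217 normalized counts in *Bptf* f/f and 1346 and 1167 in *Bptf* cKO libraries, and the genotypes overlapped. The log2 fold change was 0.059 (limma adjusted p = 0.873, SE 0.12), and its 95% interval covered 0.846- to 1.28-fold.

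*Mtor*, the gene of the kinase itself, had 2012 and 2251 normalized counts in *Bptf* f/f and 2773 and 2659.6 in *Bptf* cKO libraries. Both *Bptf* cKO libraries were above both controls, at a log2 fold change of 0.35 (SE 0.10, 95% interval 0.089 to 0.61, limma adjusted p = 0.217). The difference was 0.46 within replicate 1 and 0.24 within replicate 2. With the replicate number as a block, limma called *Mtor* higher (adjusted p = 0.0273), as it did 6.03% of all tested genes. *Rptor*, which encodes the scaffold that presents substrates to the kinase, had 1879.7 and 1907 against 1919.9 and 2242 normalized counts. The *Rptor* libraries did not overlap either, but 1 *Bptf* cKO library lay next to the higher control, and the log2 fold change was 0.13 (limma adjusted p = 0.650, SE 0.11). Its 95% interval covered 0.896- to 1.34-fold.

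The TSC genes encode the brake on RHEB, in which TSC2 is the GTPase-activating subunit and TSC1 stabilizes it. *Tsc1* had 1820.0 and 2119 normalized counts in *Bptf* f/f and 1590.4 and 1745 in *Bptf* cKO libraries, a difference of -0.24 in log2 (limma adjusted p = 0.435, SE 0.12). *Tsc2* had 2579 and 2802 against 2372 and 2392 normalized counts, a difference of -0.17 in log2 (limma adjusted p = 0.462, SE 0.096). For both genes the controls lay above all *Bptf* cKO libraries, by amounts that did not pass the test. Their 95% intervals covered 0.685- to 1.05-fold for *Tsc1* and 0.748- to 1.05-fold for *Tsc2*. Exons of *Tsc2* share 693 bp with *Pkd1* on the other strand, and *Pkd1* had between 2864 and 3241 normalized counts. The strand setting of the counting was not given, so it cannot be told whether reads of the shared stretch were counted or left out. *Rheb*, the gene of the GTPase, had 1525 and 1515 normalized counts in *Bptf* f/f and 1611 and 1521 in *Bptf* cKO libraries, with overlap. Its log2 fold change was 0.042 (limma adjusted p = 0.895, SE 0.099), and its 95% interval covered 0.866- to 1.22-fold.

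**Figure D3:**
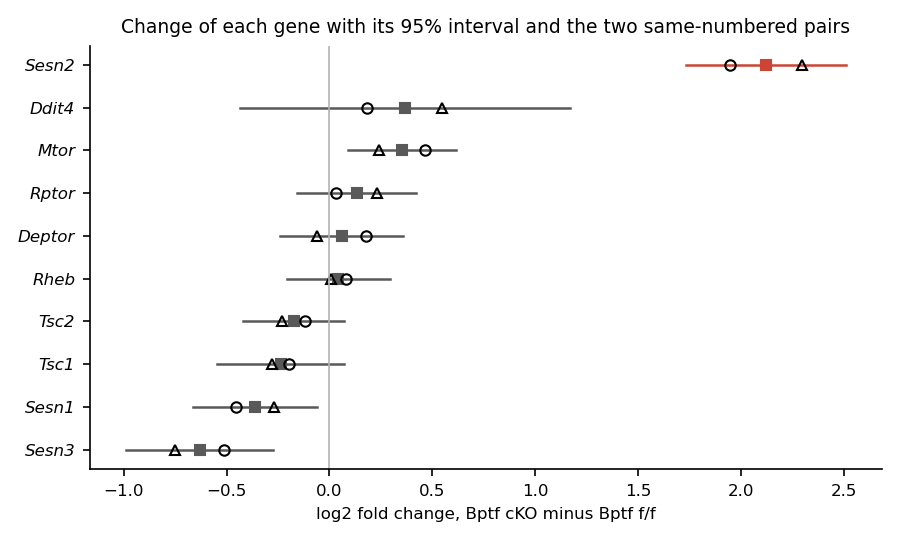
Log2 fold change between genotypes, positive where *Bptf* cKO was higher, for each gene (square) with its limma 95% interval (line), and the difference within replicate 1 (circle) and replicate 2 (triangle). *Sesn2* (red) passed at an adjusted p under 0.05 and lies at 2.12, and the 9 other genes (grey) lie between -0.63 and 0.37.

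Of the 10 genes, 1 was called higher and 0 lower in limma, and 4 of the 10, *Sesn2*, *Sesn3*, *Sesn1* and *Mtor*, had an unadjusted limma p under 0.05, as did 15.7% of all tested genes. edgeR on the recovered reads made the same calls, with 0.33% of all genes called higher and 0.303% lower. DESeq2 added *Sesn3* as lower, with 2.28% of all genes called higher and 3.57% lower. Without regard to the test, 3 genes had both *Bptf* cKO libraries above both controls and 4 had both below. Among all tested genes these shares were 23.2% above and 23.8% below. The median log2 fold change of the group was 0.050, beside 0.0010 for all tested genes, and 8 of the 10 lay within 0.5 of 0, as did 78.3% of all tested genes.

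By level per kb of transcript, *Rheb* was the highest of the 10 genes in *Bptf* f/f cells, at 852 ± 4.20 normalized counts per kb (SD, n = 2), and *Sesn2* the lowest, at 104 ± 0.366. Between them came *Sesn1* (648), *Ddit4* (459), *Tsc2* (429), *Rptor* (287), *Tsc1* (256), *Mtor* (249), *Sesn3* (208) and *Deptor* (141). Neighbours in that order did not overlap between libraries, except *Ddit4* with *Tsc2* and *Tsc1* with *Mtor*. In *Bptf* cKO cells *Rheb* again led, at 878 ± 35.7, *Sesn2* ranked 4 at 459 ± 76.1 and *Sesn3* was last at 135 ± 21.7. There *Ddit4* overlapped *Sesn1*, *Sesn1* overlapped *Sesn2*, *Mtor* overlapped *Rptor*, and *Deptor* overlapped *Sesn3*.

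The genes lie on 8 chromosomes in GENCODE vM21 on GRCm38, to which they were matched by symbol, since coordinates are not part of the table. *Sesn2* spans 132492032 to 132510501 on the minus strand of chromosome 4, with 10 exons in its only coding transcript. *Mtor* lies on the plus strand of the same chromosome, from 148448611 to 148557683. *Sesn1*, from 41809935 to 41908424, and *Ddit4*, from 59949669 to 59951834, are both on chromosome 10. *Sesn3* spans 14275067 to 14333101 of chromosome 9. Values are sums over whole genes, so the 2 annotated starts of *Sesn1* were not separated.

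The rest of the pathway was read from lists of 71 genes outside the group. Of these, 69 were in the table and 67 were tested, and 1 was called higher and 0 lower in limma and in edgeR, against 0.37% in each direction among all genes in limma. DESeq2 called 3 higher (*Eif4ebp1*, *Pik3cb* and *Larp1*) and 1 lower (*Pdcd4*), against 2.28% and 3.57% of all genes. An unadjusted limma p under 0.05 was found for 12 of the 67, against 15.7% of all tested genes. The median log2 fold change of the 67 genes was 0.040, and 61 (91.0%) lay within 0.5 of 0, against 78.3% of all tested genes. The gene called in limma and in edgeR was *Eif4ebp1*, which encodes an mTORC1 substrate that represses cap-dependent translation and is a known ATF4 target. It had 1002 and 880.1 normalized counts in *Bptf* f/f and 1982 and 2069.8 in *Bptf* cKO libraries. Both *Bptf* cKO libraries were well above both controls, and the gene rose 2.16-fold (log2 fold change 1.11, SE 0.11, limma adjusted p = 0.0332). *Eif4ebp1* lost the call without *Bptf* f/f replicate 2 (adjusted p = 0.0692), without *Bptf* cKO replicate 1 (0.172) and without *Bptf* cKO replicate 2 (0.266), and in limma without the trend (0.143).

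**Figure D4:**
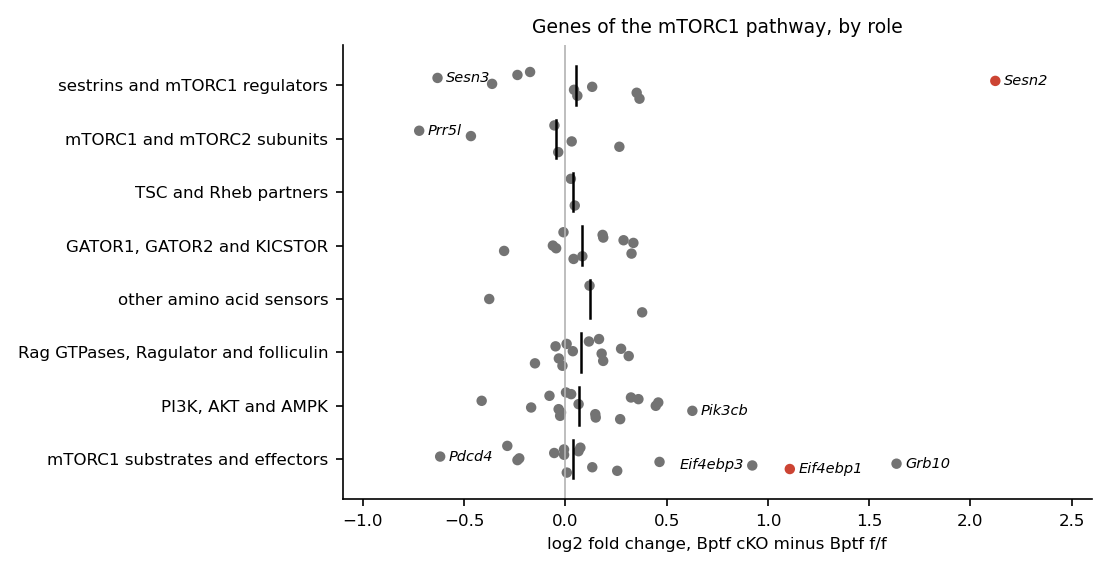
Log2 fold change between genotypes, positive where *Bptf* cKO was higher, for the tested genes of each pathway list, with 1 point per gene and the median of each list as a black line. The genes called at an adjusted p under 0.05 are red, *Sesn2* at 2.12 and *Eif4ebp1* at 1.11, and genes beyond 0.6 in either direction are named.

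None of the 6 other subunits of mTORC1 and mTORC2 was called, and they ran from -0.72 for *Prr5l* to 0.27 for *Mapkap1*, a subunit of mTORC2, on the log2 fold change scale. The TSC partner *Tbc1d7* and the *Rheb* relative *Rhebl1* stood at 0.027 and 0.046. In the amino acid branch, 11 tested genes of GATOR1, GATOR2 and KICSTOR lay between -0.30 for *Mios* and 0.34 for *Sec13*, both parts of GATOR2, with which sestrins interact. *Castor1* and *Castor2*, listed under the older symbols *Gatsl3* and *Gatsl2*, encode an arginine sensor and its relative. They had log2 fold changes of 0.38 and -0.38. The 12 genes of the Rag GTPases, Ragulator and folliculin ran from -0.15 for *Fnip1* to 0.31 for *Lamtor2*. The 17 tested genes of PI3K, AKT and AMPK ran from -0.41 for *Prkab1*, a regulatory subunit of AMPK, to 0.63 for *Pik3cb*, a catalytic subunit of PI3K. No gene of these lists passed in limma or in edgeR, and *Pik3cb* alone passed in DESeq2, as higher. The 16 substrates and effectors included *Eif4ebp1* and spread from -0.62 to 1.63.

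Of the 16 substrates and effectors, 12 had a log2 fold change within 0.5 of 0, *Larp1* among them. Those named here were chosen after their values were seen. *Grb10*, an adaptor that mTORC1 phosphorylates and that dampens insulin signalling, had 1389 and 3258 normalized counts in *Bptf* f/f and 5252 and 8316 in *Bptf* cKO libraries. The genotypes did not overlap, but the libraries within each differed widely, and the log2 fold change of 1.63 had an SE of 0.44 (limma adjusted p = 0.186). *Pdcd4*, a translation inhibitor degraded after S6 kinase signalling, had 4135 and 3193 against 2390.4 and 2342 normalized counts (-0.62 as log2 fold change, limma adjusted p = 0.145). *Larp1*, which holds back ribosomal protein mRNAs under mTORC1 control, had 7474 and 7222 against 10078 and 10197 normalized counts (0.46 as log2 fold change, limma adjusted p = 0.0964). DESeq2 called *Pdcd4* lower and *Larp1* higher, and did not call *Grb10*.

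Transcription factors known to act on the sestrin and *Ddit4* genes were read as a list of 10. In limma 1 of them was called higher, against 0.37% of all tested genes. *Ddit3*, which encodes CHOP, had 357 and 412 normalized counts in *Bptf* f/f and 903 and 1092 in *Bptf* cKO libraries. It rose 2.59-fold (log2 fold change 1.37, SE 0.16, limma adjusted p = 0.0429), with no overlap between the genotypes. The call of *Ddit3* was lost when any of the 4 libraries was left out, at adjusted p values between 0.0681 and 0.306, and without the trend (0.143). *Atf4* had 6633 and 8840 against 8852 and 9469 normalized counts, a log2 fold change of 0.26 that did not pass (limma adjusted p = 0.501). *Trp53* stood at 0.16 and the oxidative stress factor *Nfe2l2* also at 0.16 on that scale. The FOXO genes *Foxo1*, *Foxo3* and *Foxo4* had log2 fold changes of -0.26, -0.14 and -0.13, and the glucocorticoid receptor gene *Nr3c1* one of -0.16. The hypoxia factors *Hif1a* and *Epas1* stood at -0.17 and 0.016, none of them called.

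Among 10815 genes that averaged 100 normalized counts or more, the profiles nearest to *Sesn2* over the 4 libraries were those of *Gm45836*, *Glrp1* and *Nupr1*, at distances of 0.249, 0.303 and 0.306 between log2 values centred on each gene's mean. *Nupr1*, a stress-induced chromatin-associated gene, had 101 and 103 normalized counts in *Bptf* f/f and 418 and 649 in *Bptf* cKO libraries. *Gm45836* had 1119.3 and 1119.9 against 3511 and 5191, and *Glrp1* had 95.3 and 81.8 against 376 and 546. The profiles nearest to *Ddit4* were those of *Ppp1r3d*, *N4bp2l1* and *4833418N02Rik*, at distances of 0.0460, 0.0520 and 0.104. *Ppp1r3d*, which encodes a glycogen-targeting subunit of protein phosphatase 1, had 174 and 94.2 normalized counts in *Bptf* f/f and 194 and 144 in *Bptf* cKO libraries. It shared with *Ddit4* the lower values in replicate 2 of both genotypes. With 4 libraries, nearness is a description only.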

How the data were processed

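Per the labels, HISAT2, featureCounts, DESeq2 and GRCm38/mm10 were named in the submitters' processing notes, while versions, annotation and strand setting were not given in the sources used here. The deposited values are a signal, gene counts divided by a size factor for each library by the authors. The deposited table also holds the authors' own log2 fold change, its standard error, a test score and p-values, which were not used. Within 0.01 reads, 100% of the values came back as whole reads, and no listed gene had fewer than 11 reads in all.

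Genes averaging 10 normalized counts or more were compared as log2 of the value plus a pseudocount of 1, which understates changes of low genes, with limma 3.58.1 in R 4.3.3 (mean-variance trend, genotype only, two-sided, Benjamini-Hochberg adjustment over 14858 genes). A gene was called at an adjusted p under 0.05. edgeR 4.0.16 and DESeq2 1.42.0 were run on the recovered reads. The scripts were tested on simulated data. Levels per kb used the longest coding transcript of GENCODE vM21. The labels do not say whether the pools of a genotype came from separate experiments, so p-values measure only the spread between these libraries. The pools of a genotype differed in *Xist* and *Ddx3y*, so they were not repeats of the same pool. How much of their spread was technical was not tested.

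The genes and lists were chosen with earlier results of these data known. Named were all 10 genes, the called genes of each pathway list or, where it had none, its extremes, all listed transcription factors, and the 3 profiles nearest to *Sesn2* and to *Ddit4*. The CCAAT and GC boxes were searched after the sequences had been seen. *Kics2* and *Samtor* of the lists were not matched by symbol.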

Additional observations from a re-analysis of the deposited data

How the results depend on the processing

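*Sesn2* stayed higher in all 17 alternatives, with log2 fold changes from 1.95 to 2.29 and adjusted p from 5.63e-23 to 0.145, and *Sesn1*, *Sesn3*, *Mtor*, *Rptor*, *Tsc1*, *Tsc2* and *Rheb* kept their direction in the same 17. With each library left out, *Ddit4* ran from -0.056 (without *Bptf* f/f replicate 2) to 0.79 and *Deptor* from -0.044 (without *Bptf* cKO replicate 1) to 0.16, both reversed at the lower end. The number of the 10 genes called (1 higher, 0 lower) was 0 higher in limma without the trend and at an adjusted p under 0.01, 1 lower with DESeq2, and between 0 and 1 higher with 0 lower when each library was left out. The 67 other pathway genes (1 higher, 0 lower) gave 0 higher without the trend and at 0.01, 3 higher and 1 lower with DESeq2, and between 0 and 1 higher with each library left out. Over all genes the 55 higher and 55 lower became 2 and 0 without the trend, 5 and 2 at 0.01, 319 and 500 with DESeq2 (2.28% and 3.57%), 49 and 45 with edgeR, and from 1 to 76 higher and from 0 to 41 lower with a library left out. A lone library was then assumed to vary like the others.

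The replicate numbers are not stated to mark a shared batch, and same-numbered libraries deviated together (correlation 0.452 across tested genes). Across the 10815 genes that averaged 100 normalized counts or more, the correlation was 0.638. With the replicate block limma called 896 genes higher (6.03%) and 1242 lower (8.36%), among them 2 of the 10 genes higher (*Sesn2*, *Mtor*) and 2 lower (*Sesn1*, *Sesn3*), at adjusted p of 1.20e-06, 0.0273, 0.0232 and 0.00159, and 6 other pathway genes higher and 1 lower. edgeR with the replicate block called 891 higher and 1229 lower, with 2, 2, 6 and 1 in the same lists. Other alternatives (pseudocounts, filters, recentring, quantile normalization, a fold change above 1.5) left the calls of the 10 genes as they were, and the cause of the changes was not tested. Merged exon length, chosen after seeing the data, moved *Deptor* to 136 per kb.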
